A study of Mus musculus with 1012 samples.

Results

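The genes Clec4e, Clec4d, Clec4n, Clec4a2, Clec5a and Clec7a encode C-type lectin pattern receptors of myeloid cells. They were taken by name, as 6 of the 30452 features of the count table, and not by how they behaved in a comparison. Receptors of this kind sit on macrophages and dendritic cells, where they bind glycans and glycolipids of fungi, mycobacteria and damaged cells, or proteins of viruses. Most signal through an immunoreceptor tyrosine-based activation motif (ITAM), carried by an adaptor or by the receptor's own tail. Phosphorylation of the motif recruits the kinase Syk, and Syk passes the signal by way of the scaffold of Card9, Bcl10 and Malt1 to NF-kappaB. Lipopolysaccharide (LPS) is sensed by another receptor, Tlr4, so that the question here was how the genes of these lectin receptors stood in macrophages before and after a Tlr4 stimulus, and whether other cells held their transcripts.

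The series holds 1012 single-cell libraries: 296 Live-seq libraries, made from a cytoplasmic biopsy of a cell that stays alive, 162 whole-cell libraries of IBA cells harvested 1 or 4 h after sampling or, labelled 0 h, not sampled at all (called post-Live-seq here), and scRNA-seq libraries of whole lysed cells. Macrophages were RAW264.7 cells, an established mouse line. Nearly all were of the subline RAW-G9, a single clone that carries mCherry behind a Tnf promoter and an EGFP-Rela fusion. This holds for the mock-treated cells (RAW_Mock) as well as for the cells given LPS (RAW_LPS). Biopsies were taken 4 to 5 h after LPS was added, and the study's methods state no such time for whole cells. The LPS dose is 100 ng/ml in those methods and 40 ng/ul in the series text. Live-seq batch 5Reseq alone held the wild-type line, with 11 cells given LPS and 1 mock cell, so that line and batch cannot be told apart. Non-macrophages were IBA cells, a brown preadipocyte line, and primary adipose stem and progenitor cells before induction (ASPC_Pre) and after 2 days of an adipogenic cocktail (ASPC_Post). Among the scRNA-seq batches, 8_8, 9_1 and scRNA held 16, 46 and 95 RAW_Mock, 15, 46 and 88 RAW_LPS and 15, 45 and 93 IBA cells, beside 60 ASPC_Pre and 35 ASPC_Post cells. In Live-seq, batches 6, 7, 8_8 and 9_4 held 8, 20, 63 and 12 RAW_Mock and 4, 16, 9 and 10 RAW_LPS cells, beside those of 5Reseq and 44 IBA, 61 ASPC_Pre and 37 ASPC_Post cells. Since cells of a batch are not replicates, counts were summed per batch and state. For RAW cells this gave 3 mock and 3 LPS sums in scRNA-seq, and 4 mock and 5 LPS sums in Live-seq. Levels are in CPM, the counts of a gene per 1000000 counts kept in a sum. Total counts per cell ran from 64547 to 1603790 in Live-seq and from 41030 to 2671609 in scRNA-seq.

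The labels were checked against 10 macrophage and 10 mesenchymal markers. Summed over its list, the macrophage level exceeded the mesenchymal one in every scRNA-seq RAW cell, in all 50 Live-seq RAW_LPS cells and in all but 1 of the Live-seq RAW_Mock cells, which had none of the macrophage markers. Among the non-macrophage libraries the opposite held, apart from 1 post-Live-seq library at 0 h with no count of either list and 1 library that went against its label. That library, labelled IBA in batch 9_1, had 31442 CPM of macrophage markers and no mesenchymal counts. It also held Clec4e at 132.7, Clec4d at 389.2, Clec4a2 at 24.4 and Clec5a at 136.1 CPM, and results on IBA cells are therefore given with and without it.

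All 6 genes lie on chromosome 6 (GRCm38). Clec4a2 (ENSMUSG00000030148, 123106428 to 123143999), Clec4n (ENSMUSG00000023349, 123229843 to 123247021), Clec4d (ENSMUSG00000030144, 123262111 to 123275265) and Clec4e (ENSMUSG00000030142, 123281789 to 123289870) follow each other within 183 kb, the first 3 on the plus strand and Clec4e on the minus strand. Only 6.52 kb separate Clec4d from Clec4e and 15.1 kb Clec4n from Clec4d. Clec7a (ENSMUSG00000079293, 129461591 to 129472779, minus strand) and Clec5a (ENSMUSG00000029915, 40574894 to 40585821, minus strand) lie elsewhere on the chromosome. Of the 75-base stretches of their transcripts, 3.24% of those of Clec4a2 also occur in Clec4a4 or Clec4b1, and none of those of the other 5 genes occur in another gene. The annotation lists Clec7a as a polymorphic pseudogene, a class for genes that are intact in some mouse strains only.

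The promoters are shown for the 3 receptors counted in most RAW cells, because Clec4e and Clec4d are neighbours that differed in their LPS response, and Clec5a is the receptor outside their cluster. Each is the 250 bases before the RefSeq start (GRCm38.p6), on the gene's own strand from 5′ to 3′. Capitals mark matches, on either strand, to C/EBP (TTGCNNAA), PU.1 (GAGGAA) and TATAAA letters. AP-1 (TGANTCA) and kappaB letters were also searched and none of them were found in these windows.
Clec4e promoter, chr6:123289872-123290121, minus strand: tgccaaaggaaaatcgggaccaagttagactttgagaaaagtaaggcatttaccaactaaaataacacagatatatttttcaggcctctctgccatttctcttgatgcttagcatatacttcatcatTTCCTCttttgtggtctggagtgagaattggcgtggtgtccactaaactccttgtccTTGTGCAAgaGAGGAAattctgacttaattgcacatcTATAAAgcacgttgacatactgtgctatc
Clec4d promoter, chr6:123261857-123262106, plus strand: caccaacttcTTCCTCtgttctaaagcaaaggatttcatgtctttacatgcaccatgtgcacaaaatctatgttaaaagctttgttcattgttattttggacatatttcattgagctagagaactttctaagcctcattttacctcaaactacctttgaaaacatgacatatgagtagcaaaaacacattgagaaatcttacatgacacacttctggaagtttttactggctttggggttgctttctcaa
Clec5a promoter, chr6:40585806-40586055, minus strand: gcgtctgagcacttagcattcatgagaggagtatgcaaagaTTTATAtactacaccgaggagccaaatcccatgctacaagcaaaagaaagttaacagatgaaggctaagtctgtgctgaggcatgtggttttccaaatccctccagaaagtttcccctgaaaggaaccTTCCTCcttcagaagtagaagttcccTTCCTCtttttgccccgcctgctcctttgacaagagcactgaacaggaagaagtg
The Clec4e window held C/EBP letters at -66, PU.1 letters at -123 and -56, of which the latter lie close to the C/EBP match without adjoining it, and TATAAA at -29. The Clec4d window held PU.1 letters at -240 alone. In the Clec5a window PU.1 letters were found at -81 and -55, and TATAAA on the reverse strand at -209. Clec4a2 had TATAAA at -161 and Clec7a PU.1 letters at -96. The table held windows for 5 of the 6 genes. Among 32851 promoter windows of the same length, 9.56% held the C/EBP letters, 23.3% the PU.1 letters, 12.4% TATAAA, 6.75% the AP-1 letters and 7.25% the kappaB letters. Matches of this kind are common and are given as a description of the sequence.

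Clec4e encodes Mincle, a receptor for mycobacterial cord factor and other glycolipids that signals through the adaptor Fcer1g. Its level rose after LPS in each batch of both techniques. In scRNA-seq, RAW_Mock sums were at 194.1, 387.2 and 833.2 CPM in batches 8_8, 9_1 and scRNA, and RAW_LPS sums at 2341, 3047 and 4542 CPM. In Live-seq, RAW_Mock sums of batches 6, 7, 8_8 and 9_4 were at 259.02, 125.97, 505.5 and 238.99 CPM, and RAW_LPS sums at 2204, 3686, 2302 and 2734 CPM, with 1666 CPM in the wild-type RAW_LPS cells of 5Reseq. The lowest LPS sum of either technique lay above the highest mock sum, and the single wild-type RAW_Mock cell had no count. Within batches the ratio of LPS to mock was 12.1, 7.87 and 5.45 in scRNA-seq and 8.51, 29.3, 4.55 and 11.4 in Live-seq, so that LPS sums were higher in 7 of 7 batches.

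In scRNA-seq the log2 fold change of Clec4e was 3.14 (standard error 0.23), with an adjusted p of 0.00504 (edgeR's quasi-likelihood test with batch in the model, Benjamini-Hochberg over all genes). A gene was called at an adjusted p under 0.05 with an absolute log2 fold change above 1. By this rule 4.36% of the 11675 genes tested were called, and 2.66% were called as higher. Of the 3 members that passed the filter on low counts, 1 was called, Clec4e. When all 5 states shared a fit, its log2 fold change was 3.10 with an adjusted p of 0.0872 in edgeR, which is past the threshold for a call. Over the 11 alternatives it ranged from 2.90 to 3.41, with adjusted p from 6.94e-46 to 0.0872. In Live-seq the log2 fold change was 3.42 (standard error 0.56, unadjusted p = 0.000523, adjusted p = 1 in edgeR). With batch in the model this value rests on the 4 batches with both states, and it was also 3.42 without batch 5Reseq. There edgeR called 0% of the 9753 genes tested, although 2.89% had an unadjusted p under 0.05, whereas DESeq2 called 2.6% of them, with Clec4e at 3.48 and an adjusted p of 0.000419. For Clec4e alone an exact two-sided permutation test over the Live-seq sums gave p = 0.0159, the smallest that 5 against 4 sums can give, without regard to the batches that mock and LPS sums share. Of the 5 LPS sums, 1 was of wild-type cells, whose line had no mock sum, so that line is mixed into this test. Permuted within the 4 shared Live-seq batches, the difference had an exact p of 0.125, below which 4 batches cannot go. With 3 against 3 scRNA-seq sums the exact test cannot go below its value of 0.1, nor below 0.25 within batches. Sums without overlap, LPS above mock, were found for 7.01% of the genes tested in scRNA-seq and for 0.954% in Live-seq.

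**Figure D1:**
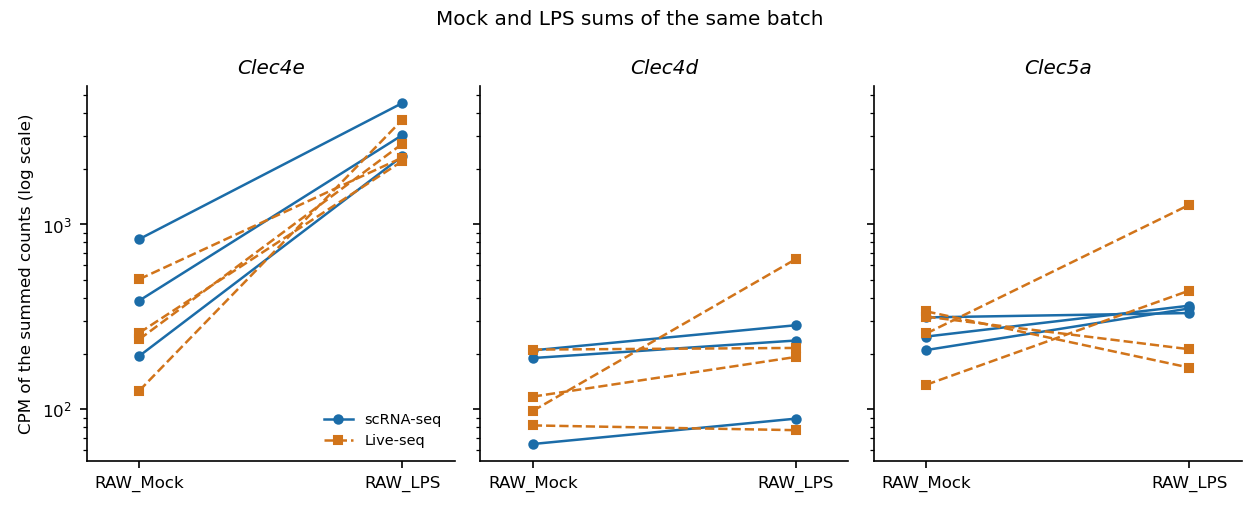
Levels of Clec4e, Clec4d and Clec5a in CPM (log axis) in mock and LPS sums of RAW cells, those of one batch joined by a line, for 3 scRNA-seq batches (circles, solid lines) and 4 Live-seq batches (squares, dashed lines). Every line of Clec4e rises, by 4.55-fold to 29.3-fold, whereas lines of Clec4d run from 0.943-fold to 6.64-fold and those of Clec5a go up in some batches and down in others.

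Single cells showed how this rise was spread. In scRNA-seq the median RAW_Mock cell had 202.5 CPM of Clec4e and the median RAW_LPS cell 3755 CPM, with ranges of 0 to 7531 and 16.5 to 12647 CPM. In Live-seq the medians were 71.9 and 2583 CPM. At least 1 count was present in every RAW_LPS cell and in all but 14 RAW_Mock cells of scRNA-seq, or 100% (95% exact binomial interval 97.6 to 100) and 91.1% (85.5 to 95), and in 92% of RAW_LPS and 59.6% of RAW_Mock biopsies of Live-seq. In IBA cells of scRNA-seq, which had a similar median of kept counts (372337, against 353602 in RAW_LPS cells), the share was 7.19%, or 6.58% without the library that went against its label. The shares expected after thinning each cell to 50000 kept counts were calculated without drawing counts. Shallower cells were left out, namely 1 RAW_Mock cell of scRNA-seq and 2 RAW_Mock and 1 RAW_LPS biopsies of Live-seq. The expected RAW_LPS and RAW_Mock shares were 99.7% and 88.8% in scRNA-seq and 91.3% and 57.3% in Live-seq, and that of IBA cells was 1.51%, or 0.865% without the library that went against its label. These intervals take the cells of a state as independent and leave out differences between batches. For Clec4e in Live-seq RAW_Mock biopsies, the share was 45% in batch 7 and 75% in batch 9_4. The libraries carried no molecular identifiers, so repeated reads may stem from 1 molecule.

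Some mock cells reached the level of treated ones. In scRNA-seq batch scRNA, 3 of 95 RAW_Mock cells lay above the RAW_LPS median of their batch, and none did so in batches 8_8 and 9_1. In Live-seq 7 of 63 did so in batch 8_8, 1 of 8 in batch 6 and none in batches 7 and 9_4. The RAW_LPS median was 1094 CPM in batch 8_8, over 9 biopsies of which 2 were at 0, and 444.6 CPM over 4 biopsies in batch 6. The RAW_Mock cell with the most Clec4e (batch scRNA, 7531 CPM) gave 29.3% of the counts of its sum and had 1918 CPM of Tnf, against a median of 112.7 CPM. Without it the log2 fold change in scRNA-seq was 3.29 (edgeR, adjusted p = 0.00186). In the other direction, 1 cell gave 88.9% of the Clec4e counts of the 4 RAW_LPS biopsies of batch 6.

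**Figure D2:**
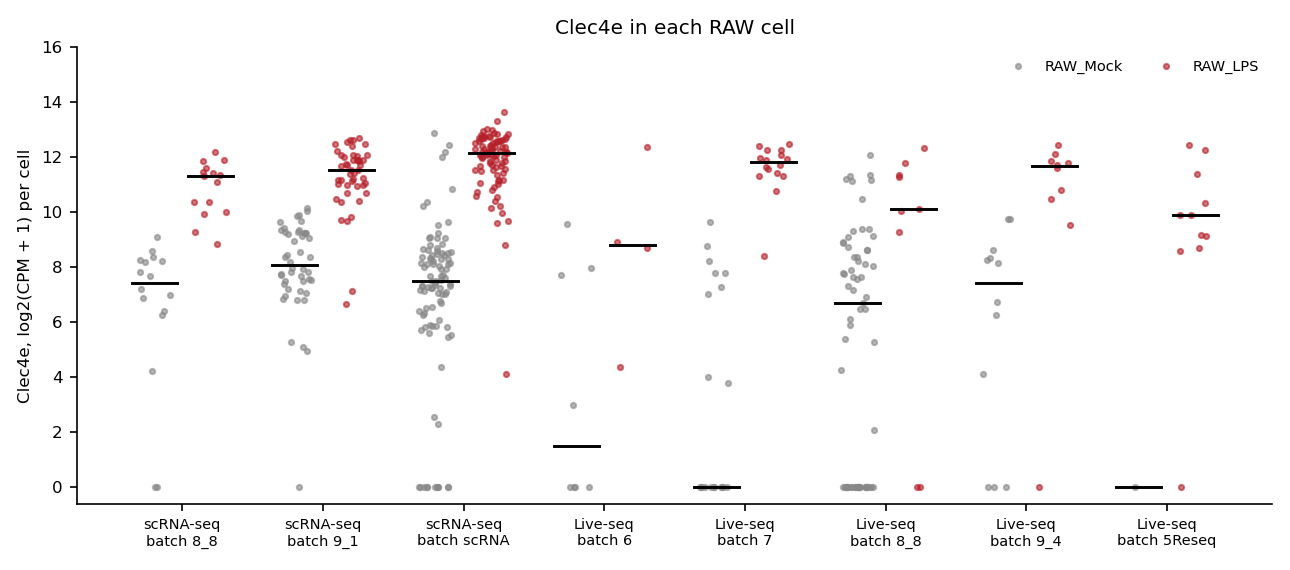
Level of Clec4e in each RAW cell, as log2(CPM + 1), by technique and batch, with RAW_Mock cells in grey, RAW_LPS cells in red and a black bar at the median of each group. Red medians lie above grey ones in each batch, and cells at 0 are mostly Live-seq RAW_Mock biopsies.

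In 4 RAW-G9 cells a biopsy was taken before and another after LPS, so these cells contribute to both a mock and an LPS sum. Clec4e went from 75 to 3676 CPM in pair 19_27 (49-fold), from 297.8 to 2542 CPM in pair 2_3 (8.53-fold) and from 0 to 3168 CPM in pair 7_12, which is at least 129.5-fold higher when the first biopsy is set at a floor of 3 counts. In pair 31_44 it went the other way, from 857.99 CPM to 0, while Tnf went from 0 to 1630 CPM. Clec4e was thus higher after LPS in 3 of 4 pairs and Tnf in all 4. Clec5a was counted at 393.8 and 334.2 CPM in 19_27, at 385.98 and 269.4 CPM in 31_44, and only after LPS in the remaining pairs (315.05 and 679.6 CPM). Clec4d was present before and after in pair 7_12 alone, at 1688 and 172.6 CPM. The labels give both libraries of 31_44 the same order, so its states were taken from the treatment label.

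Clec4d encodes MCL, a partner of Mincle that also binds cord factor. Its level differed little between the groups. In scRNA-seq RAW_Mock sums were at 208.2, 189.2 and 64.8 CPM in batches 8_8, 9_1 and scRNA and RAW_LPS sums at 284.8, 235.4 and 88.9 CPM. The groups overlapped, batch scRNA being lowest in both, while each LPS sum stood 1.24 to 1.37 times above the mock sum of its batch. The log2 fold change was 0.55 (standard error 0.14, adjusted p = 0.0784 in edgeR), and DESeq2 gave 0.57 with an adjusted p of 0.00663, below the size needed for a call. Live-seq RAW_Mock sums were at 97.9, 116.99, 210.2 and 81.7 CPM in batches 6, 7, 8_8 and 9_4, and RAW_LPS sums at 649.6, 191.8, 214.6 and 77 CPM, with 622.5 CPM in wild-type RAW_LPS cells. The sums of batch 6 and of the wild-type cells were high and the others overlapped. The log2 fold change was 0.85 (standard error 0.65, adjusted p = 1 in edgeR), and the exact permutation p was 0.19. The single wild-type mock cell had 770.2 CPM. Clec4d was counted in 96% of RAW_LPS and 84.1% of RAW_Mock cells of scRNA-seq, and in 78% and 60.6% of the Live-seq biopsies.

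Clec5a encodes MDL-1, a receptor for flaviviruses that pairs with the adaptors Tyrobp and Hcst. In scRNA-seq, RAW_Mock sums were at 209.1, 314.02 and 247.3 CPM in batches 8_8, 9_1 and scRNA, and RAW_LPS sums at 351.2, 331.5 and 363.4 CPM. The groups did not overlap, which held, with LPS above mock, for 7.01% of all genes tested. The exact permutation p was 0.1, the smallest that 3 against 3 sums can give. The difference in batch 9_1 was 1.06-fold. The log2 fold change of 0.60 (standard error 0.17) had an adjusted p of 0.101 in edgeR and of 0.0107 in DESeq2, without reaching the size for a call. In Live-seq, RAW_Mock sums were at 257.1, 135.7, 316.8 and 338.4 CPM and RAW_LPS sums at 1278, 438.9, 211.1 and 167.9 CPM in batches 6, 7, 8_8 and 9_4, with 561.6 CPM in wild-type RAW_LPS cells. Batches 6 and 7 were higher after LPS and 8_8 and 9_4 lower, and 87.5% of the counts of the batch 6 LPS sum came from 1 cell. The log2 fold change was 0.63 (standard error 0.72, adjusted p = 1 in edgeR), the groups overlapped, and the exact permutation p was 0.302. All RAW_LPS cells and all but 2 RAW_Mock cells of scRNA-seq had a count of Clec5a (100% and 98.7%). In Live-seq the shares were 80% of RAW_LPS and 62.5% of RAW_Mock biopsies.

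Whether biopsy and whole cell differed in the LPS effect was tested as an interaction. The difference in log2 fold change, Live-seq minus scRNA-seq, was 0.29 (standard error 0.68) for Clec4e, 0.32 (0.68) for Clec4d and 0.05 (0.84) for Clec5a, each with an adjusted p of 1 in edgeR. Of 10812 genes tested edgeR called 0%, with 4.91% at an unadjusted p under 0.05, and DESeq2 called 74, none of them a member. These errors leave room for differences of more than 1 log2 unit. The median change of all genes was -0.01 in scRNA-seq and -0.41 in Live-seq, and the members' values in Live-seq stand beside that shift.

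Clec4n encodes Dectin-2, a receptor for fungal mannans that signals through Fcer1g. It was scarce in RAW cells. In scRNA-seq RAW_Mock sums were at 1.16, 0.587 and 0.146 CPM and RAW_LPS sums at 0.484, 2.1 and 0.475 CPM in batches 8_8, 9_1 and scRNA, in an order that differed between batches. Counts came from 11 RAW_Mock cells (7.01%) and 16 RAW_LPS cells (10.7%). In Live-seq it was counted in 4 RAW_Mock (3.85%) and 5 RAW_LPS biopsies (10%). In batches 6, 7, 8_8 and 9_4 mock sums were at 0, 0, 0.553 and 1.57 CPM and LPS sums at 0, 2.92, 0 and 0 CPM. LPS sums were thus higher in 1 of these 4 batches and lower in 2. The LPS sum of the wild-type cells was at 18.7 CPM. The filter on low counts removed Clec4n from the fits, and exact permutation tests over the sums gave p = 0.7 in scRNA-seq and 0.714 in Live-seq. Not one of the non-macrophage cells had a count. Pooled over cells, this put RAW cells at least 30.6-fold higher in scRNA-seq and at least 49.8-fold higher in Live-seq, against a floor of 3 counts over all non-macrophage cells. Single cells carried much of this, since 1 RAW cell gave 36.3% of the scRNA-seq counts and 1 wild-type biopsy 48.3% of those of Live-seq. Without these cells the bounds were 19.6-fold and 26-fold, and without batch 5Reseq the Live-seq bound was 17.8-fold. In the edgeR fit over all 5 states without a filter on low counts, Clec4n was called as higher in RAW cells in scRNA-seq (log2 fold change 7.16, standard error 1.69, adjusted p = 0.00556) and not in Live-seq (5.21, standard error 2.52, adjusted p = 0.442). That fit called 6718 of the 28251 genes tested in scRNA-seq, 2399 of them as higher. All non-macrophage sums of Clec4n were at 0, so the size of its fitted values depends on edgeR's prior count of 0.125 and is not a measured ratio.

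Clec4a2 encodes DCIR, the inhibitory receptor of the group, whose tail binds the phosphatases Ptpn6 and Ptpn11. It was close to undetected. Among whole RAW cells, 1 RAW_LPS cell held 8 counts and the RAW_Mock cells held none, which allows, by a floor of 3 cells, up to 1.91% of cells with a count. In Live-seq, 26 counts came from 4 wild-type RAW_LPS cells (5.01 CPM) and 31 counts from 1 RAW_Mock cell of batch 8_8 (1.71 CPM). Among non-macrophage libraries, the one labelled IBA without mesenchymal counts was the only one with a count.

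Clec7a encodes Dectin-1, the receptor for fungal beta-glucans, which carries an ITAM-like motif in its own tail. Its pattern was unlike that of the other members. No count was found in the RAW cells of scRNA-seq, which by the same floor allows up to 1.91% of RAW_Mock and 2.01% of RAW_LPS cells with a count, nor in any RAW-G9 biopsy. In Live-seq 3 of the 11 wild-type RAW_LPS biopsies held it at 545.98, 76.3 and 11.3 CPM, which put their sum at 41.8 CPM, and these 3 had 20838 to 81073 CPM of macrophage markers and no mesenchymal counts. All other counts of scRNA-seq and Live-seq were in progenitors. In scRNA-seq 8 of 35 ASPC_Post cells had a count (22.9%, exact binomial interval 10.4 to 40.1), 61 counts in all and 34 of them in 1 cell. Thinned to 50000 kept counts per cell the expected share was 8.06%, below that interval. In addition 3 of 60 ASPC_Pre cells had 32 counts, of which 29 were in 1 cell. ASPC_Post cells were at 3.54 CPM, and in Live-seq at 0.813 CPM from 1 of 37 cells.

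The 8 ASPC_Post cells with Clec7a carried 9570 to 57069 CPM of mesenchymal markers. Their macrophage list stood at 0 to 48.8 CPM, against a median of 32.7 CPM and a highest value of 219.1 CPM in the other ASPC_Post cells. Of the 10 macrophage markers, Adgre1, Itgam, Laptm5 and Ctss had no count in any ASPC_Post cell. Csf1r was counted in 6 of the 8 cells and in 17 of the other 27, Lyz2 and Cd68 in 4 each and in 12 and 11 of the others, and Cd14 in 4 and in 5. The pan-leukocyte gene Ptprc was counted in 1 of the 8 cells and in none of the others, and Mpeg1 in 2 of the others. The part of macrophage RNA in the Clec7a counts was not tested. With 1 batch of ASPC_Post cells in each technique, no test between ASPC states was made. IBA cells of scRNA-seq and Live-seq had no Clec7a, and post-Live-seq cells had 6 counts in 1 of 70 cells at 0 h.

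**Figure D3:**
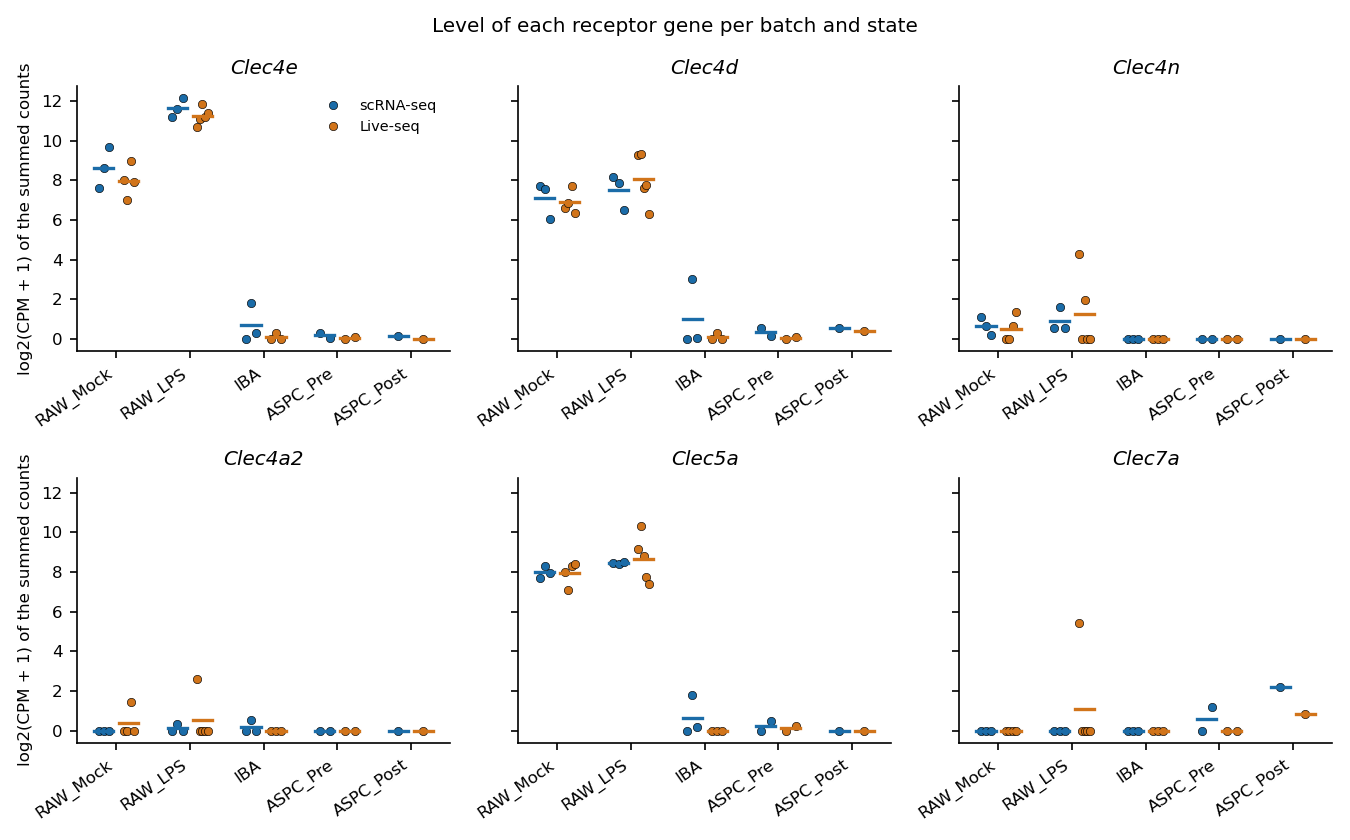
Level of each of the 6 genes as log2(CPM + 1) of the summed counts, by state, with 1 point per batch of at least 3 cells (blue, scRNA-seq; orange, Live-seq) and a bar at the mean. Clec4e, Clec4d and Clec5a stand high in RAW sums of both techniques, the high IBA point of each being batch 9_1, whereas Clec4n, Clec4a2 and Clec7a stay at or below 2.92 CPM apart from the wild-type RAW_LPS sum and, for Clec7a, the ASPC_Post sum of scRNA-seq at 3.54 CPM.

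Clec4e, Clec4d and Clec5a were restricted to macrophages in these samples. Pooled over cells of scRNA-seq, Clec4e stood at 2140 CPM in RAW cells and at 0.788 CPM in the others, or 0.123 CPM without the library labelled IBA that had no mesenchymal counts. For Clec4d the values were 146.6 CPM against 2.09 CPM (0.132 without that library), and for Clec5a 309.1 CPM against 0.806 CPM (0.123). In Live-seq Clec4e was at 1384 against 0.0346 CPM, Clec4d at 221.8 against 0.121 CPM and Clec5a at 342.3 against 0.0519 CPM. The Live-seq counts in non-macrophages were few, and the ratio for Clec4e, which rests on 2 of them, had a 95% counting interval from 11065-fold to 330077-fold. That for Clec5a, on 3 counts, ran from 2255-fold to 31969-fold.

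In the fit over all 5 states, the mean of RAW_Mock and RAW_LPS against the mean of IBA, ASPC_Pre and ASPC_Post gave log2 fold changes in scRNA-seq of 12.51 (standard error 1.06, adjusted p = 1.94e-05) for Clec4e, 8.82 (1.17, 0.000257) for Clec4d and 11.62 (1.05, 2.78e-05) for Clec5a in edgeR. In Live-seq they were 14.14 (0.99, 2.39e-05), 9.63 (1.23, 0.000864) and 12.80 (1.25, 0.000432). These 3 genes passed the filter on low counts through their RAW sums, so that the number of members called is no support in itself. Over all genes this contrast called 43.8% in scRNA-seq, 15.3% as higher, and 5.86% in Live-seq, 1.66% as higher. Without the library labelled IBA the scRNA-seq values were 13.07, 10.02 and 12.42. Clec5a had no count in ASPC_Post cells of either technique, nor Clec4e in those of Live-seq, so that edgeR's prior count of 0.125 enters the fitted values. Clec7a, the remaining member tested, had an adjusted p of 1 in edgeR in both techniques. In bulk sums of this kind, a cell with less RNA and fewer cells with the transcript cannot be told apart, and the shares of cells are given for that reason.

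What was left in non-macrophages was mostly single counts. Apart from the library labelled IBA, Clec4e had 1 count in each of 10 IBA, 2 ASPC_Pre and 2 ASPC_Post cells of scRNA-seq. These cells were at 0 to 82.3 CPM of macrophage markers and 1913 to 17765 CPM of mesenchymal markers. Clec4d reached 8 counts in 3 ASPC_Post cells and Clec5a 10 counts in 2 ASPC_Pre cells, 9 of them in 1 cell.

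**Figure D4:**
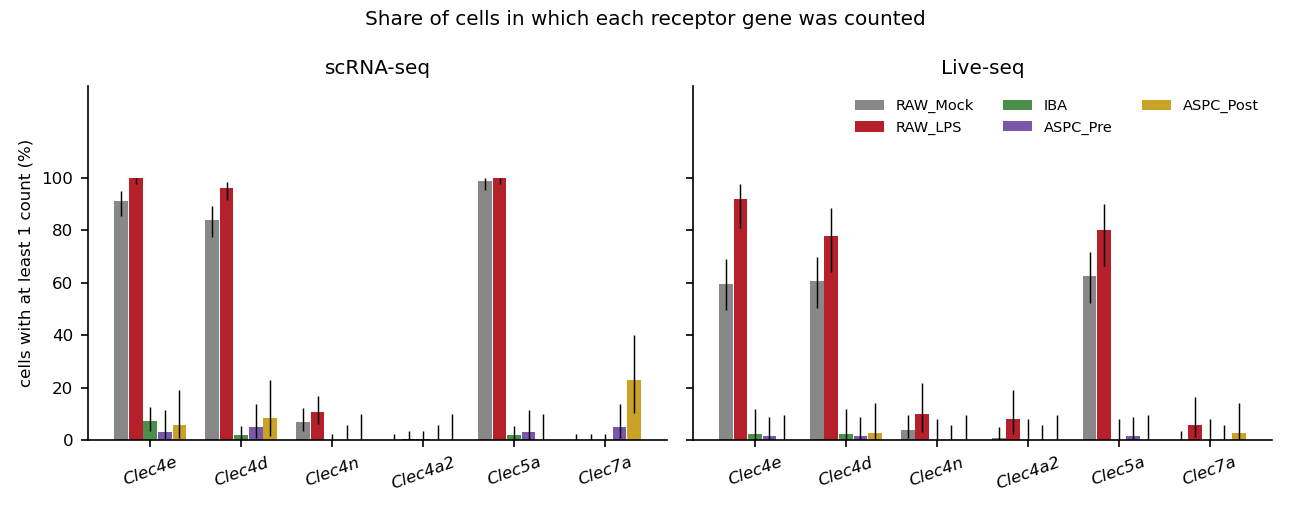
Share of cells with at least 1 count of each receptor gene, in percent, for the 5 states of scRNA-seq (left) and Live-seq (right), with 95% exact binomial intervals. Clec4e, Clec4d and Clec5a are found in 84.1% to 100% of whole RAW cells and in 59.6% to 92% of RAW biopsies, and only Clec7a has its tallest scRNA-seq bar in ASPC_Post cells.

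To set genes beside each other, levels were divided by the kilobases of exon annotated for each gene, pooled over its transcripts. This length need not be that of the mRNA present in these cells, so comparisons between genes depend on the annotation. By this measure the 3 frequent receptors were close in whole RAW_Mock cells. Clec4d was at 96.4 ± 48.7 (SD, n = 3), Clec4e at 95 ± 66 and Clec5a at 66.9 ± 13.8 CPM per kb, which do not differ beyond their spread. In whole RAW_LPS cells Clec4e led at 666.7 ± 226.4 CPM per kb, followed by Clec4d at 126.98 ± 63.7 and Clec5a at 90.8 ± 4.19, of which the latter pair overlap. In Live-seq RAW_LPS sums Clec4e was at 507.2 ± 152.1 (SD, n = 5), Clec4d at 219.6 ± 165.98 and Clec5a at 138.4 ± 116.6 CPM per kb. In Live-seq RAW_Mock sums they were at 56.9 ± 32.2 (SD, n = 4), 79.2 ± 36 and 68.2 ± 23.7 CPM per kb, again within their spread. Clec4n, Clec4a2 and Clec7a stayed under 4 CPM per kb in the mean of each state.

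The genes nearest in pattern were sought over 27 sums of both techniques by Pearson's r of log2(CPM + 1). This is a description, since these sums share cell types and batches. The 11672 genes compared were those that passed the filter on low counts in RAW sums of scRNA-seq. Genes counted only in progenitors or only in wild-type cells could therefore not be found, which limits the result for Clec7a most. Nearest to Clec4e were Tnf (r = 0.995), Gm49339 (0.992) and Gpr84 (0.992), of which Tnf is the classical cytokine of the LPS response. Nearest to Clec4d were Fcer1g (0.985), Spi1 (0.983) and Rac2 (0.980), and to Clec5a Hcls1 (0.993), Spi1 (0.992) and Rac2 (0.987), which are genes of the myeloid lineage or of blood cells at large. Clec4n and Clec4a2 were nearest to Gm9522 (0.865) and 2610528A11Rik (0.792), then to Cxcl10 (0.834 and 0.757), with Pkd1l2 (0.825) and Gm9522 (0.734) following, and Clec7a to Ifit3b (0.812), Mir6240 (0.808) and Gm9522 (0.760). For the scarce genes these values lean on the wild-type RAW_LPS sum. Across single cells of scRNA-seq, within a state and each of the 3 batches, Spearman's rho between Clec4e and Tnf ran from 0.18 to 0.37 in RAW_LPS cells and from -0.10 to 0.32 in RAW_Mock cells, and between Clec4e and Clec4d from -0.02 to 0.38 and from 0.17 to 0.49.

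Wild-type and RAW-G9 biopsies after LPS could be set side by side for all 6 genes, without a test, since the wild-type cells are 1 batch. Clec4e was at 1666 CPM in wild-type cells and at 2204 to 3686 CPM in the 4 RAW-G9 sums. Clec4d (622.5 CPM) and Clec5a (561.6 CPM) lay within the RAW-G9 ranges of 77 to 649.6 and 167.9 to 1278 CPM. Clec4n (18.7 CPM against 0 to 2.92), Clec4a2 (5.01 CPM against 0) and Clec7a (41.8 CPM against 0) were each higher in the wild-type sum. All 3 scarce receptors thus had their highest RAW level in the same sum.

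The signalling genes of the pathway moved less evenly after LPS. Of the 3 ITAM adaptors none was called in scRNA-seq (median log2 fold change -0.19, against -0.01 over all genes). Fcer1g, partner of Mincle, MCL and Dectin-2, was at 0.39 (adjusted p = 0.102 in edgeR), Tyrobp at -0.51 (0.0804) and Hcst at -0.19. Of 8 proximal kinases and effectors, 1 was called, Syk, the kinase shared by these receptors, which rose by 1.34 on the log2 scale (standard error 0.27, adjusted p = 0.0462). The kinases Src and Fgr had values of 3.23 (adjusted p = 0.319 in edgeR) and 1.28 (adjusted p = 0.155), without a call. The median of these 8 was 1.13.

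In the scaffold below Syk, 2 of 3 genes were called in scRNA-seq. Malt1, the paracaspase, rose 6.06-fold (5.4 to 6.8 within 1 standard error, adjusted p = 0.00403 in edgeR) and Bcl10 2.15-fold (1.88 to 2.45, adjusted p = 0.035), while Card9, which links them to Syk, was at a log2 fold change of -0.53 with an adjusted p of 0.26. Of 3 inhibitory phosphatases, Inpp5d, which encodes the lipid phosphatase SHIP1, fell by 2.18 on the log2 scale (standard error 0.17, adjusted p = 0.00607), and Ptpn6 and Ptpn11 were at -0.28 and 0.00. Of 6 transcription regulators of myeloid genes, Cebpd rose by 2.54 (standard error 0.20, adjusted p = 0.00607), with Rela at 0.95 (0.0922), Cebpa at 0.74 (0.888) and Spi1, which encodes PU.1, at 0.59 (0.0594). These calls rest on the 3 scRNA-seq batches, where 4.36% of the 11675 genes tested were called. In Live-seq none of these genes was called by edgeR, with Malt1 at 1.18 (standard error 1.33), Bcl10 at 1.45 (0.69), Syk at 2.83 (2.89), Inpp5d at -3.35 (2.39) and Cebpd at 2.04 (1.07).

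**Figure D5:**
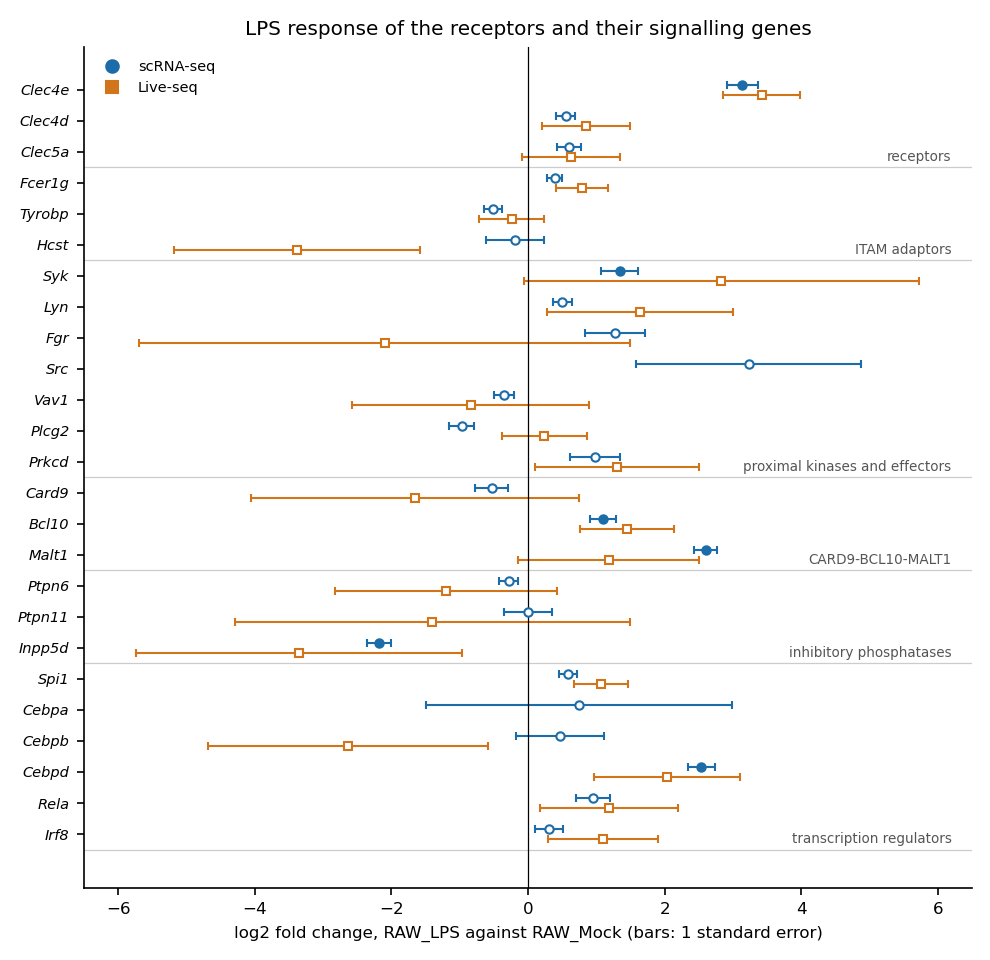
Log2 fold change of RAW_LPS against RAW_Mock with 1 standard error for the receptors and their signalling genes, by group, in scRNA-seq (blue circles) and Live-seq (orange squares). Filled symbols were called, which holds for Clec4e, Syk, Bcl10, Malt1, Inpp5d and Cebpd in scRNA-seq and for no gene in Live-seq, where errors are wider.

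Of 22 other C-type lectin genes, only 6 passed the filter in RAW cells of scRNA-seq, and 1 was called after LPS, beside 4.36% of all genes tested. This was Colec12, a scavenger receptor, which fell by 1.04 on the log2 scale (standard error 0.17, adjusted p = 0.0303 in edgeR). Olr1, the receptor for oxidized LDL, was at 7.24 with an adjusted p of 0.108, Mrc2 at -1.55 (0.457) and the inhibitory Clec12a at 0.84 (0.15). Set against non-macrophages in scRNA-seq, the adaptors were called as higher in RAW cells in 3 of 3 cases, the kinases and effectors in 6 of 8 (Src was lower), the scaffold in 2 of 3 and the phosphatases in 2 of 3 (Ptpn11 was lower). Over all 13562 genes tested this contrast called 43.8%, and 15.3% were called as higher. Whether the lists exceed these shares was not tested. Of the 10 other lectins tested there, Clec12a was called as higher and 6 as lower, among them Mrc2 (-8.15, adjusted p = 5.09e-07) and Olr1 (-7.74, 0.00274).

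The treatment itself was visible in both techniques. All 7 LPS-inducible check genes were higher in scRNA-seq, 4 of them called, with a median log2 fold change of 4.65, led by Cxcl2 (6.87, adjusted p = 0.126 in edgeR), Nos2 (5.99, 0.0624), Ptgs2 (4.82, 0.031) and Il1b (4.65, 0.247). In Live-seq all 7 were higher without a call, with a median of 4.03. Of 8 macrophage markers tested in RAW cells, Cd14 rose by 1.61 (adjusted p = 0.0327 in edgeR) and Laptm5 fell by 1.06 (0.0108), and of 4 mesenchymal markers none was called.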

How the data were processed

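The authors deposited a table of counts per Ensembl gene for 1012 Smart-seq2 libraries. Per the submitters' processing notes these were made with bcl2fastq 2.19.1, STAR 2.6.1c and HTSeq on mm10. HTSeq was run without regard to strand, so a gene and an antisense gene over it cannot be told apart. Of the count columns, 0 could not be mapped to a sample. The deposited counts were used raw. As in the study, 20 genes listed as negative controls and 92 genes of ribosomal proteins were removed (a median of 24.1% of the counts in Live-seq and 24.7% in scRNA-seq). Median total counts per cell were 506778.5 in Live-seq and 467677 in scRNA-seq.

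Counts were summed per batch and state, in sums of at least 3 cells, and tested with edgeR 4.0.16 in R 4.3.3 (TMM, glmQLFit, glmQLFTest, filterByExpr with a minimum count of 2), with batch in the model as in the study. Two-sided exact permutation tests on log2(CPM + 1) used scipy 1.17.1, and DESeq2 1.42.0 was an alternative. In Live-seq the permutation tests over all sums took in the wild-type LPS sum, which has no mock sum of its line. Batch labels are shared by mock and LPS sums. Deviations of sums of the same batch correlated at 0.261, 0.318 and 0.421 in scRNA-seq and at 0.189, 0.061, 0.003 and 0.097 in Live-seq. Nothing in the labels says that batches are separate cultures, so p-values measure the spread between batches. All other alternatives are given in the closing section, and the fits were tested on simulated data, which checks the code and not the power of these comparisons.

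The members and gene lists were chosen with earlier results of these data known. Named were the 6 members, up to 4 genes of each list with the largest absolute log2 fold change after LPS in scRNA-seq, and the 3 genes nearest to each member in pattern. Other genes were named after their values were seen. The values of 1 listed gene are not reported here or plotted, though it stays in the counts and median of its list. Bounds set a count of 0 at 3 counts. RefSeq promoters and the GENCODE annotation of GRCm38 came from reference files.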

Additional observations from a re-analysis of the deposited data

Results flagged for a closer look

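In Live-seq the wild-type RAW_LPS sum of batch 5Reseq stood apart from the other 4 RAW_LPS sums for all 3 scarce receptors: Clec4n at 18.7 CPM, Clec4a2 at 5.01 CPM and Clec7a at 41.8 CPM. The gap to the nearest other sum exceeded the 95% critical value for an outlier among 5 values. Line and batch cannot be told apart here. Clec4a2 in RAW_Mock was at 1.71 CPM in batch 8_8 and at 0 in the other 3 Live-seq sums, all of it from 1 cell. Of 12 groups of 4 or 5 sums examined, 4 stood out in this way, and chance marks about 1 in 20 groups of continuous values. For Clec4a2 and Clec7a all other sums were at 0, where any value above 0 stands out, so that this rate does not apply to them.

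In the post-Live-seq cells, which enter no comparison above, Clec4d was counted at 0.784 CPM in IBA cells harvested 1 h after sampling, from 17 counts in 2 of 49 cells, and at 0 in the 70 cells labelled 0 h, which were not sampled and where the floor of 3 counts is 0.123 CPM. The 2 cells had 18.8 and 55 CPM of macrophage markers and 2445 and 6592 CPM of mesenchymal markers. With 1 batch, the difference was not tested.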

How the results depend on the processing

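After LPS in scRNA-seq the share of tested genes that was called, 4.36% here, was 9.62% with DESeq2 (1123 genes), 7.84% with edgeR's newer quasi-likelihood fit, 1.2% with all 5 states in 1 fit, and 0.502% to 8.37% without 1 batch each (0.502% without 9_1, 1.99% without scRNA, 8.37% without 8_8). In Live-seq DESeq2 called 2.6% in place of 0%, and 0.684% (74 genes) for the interaction. For RAW against non-RAW cells in Live-seq, 5.86% here, the shares were 17.9% with DESeq2 (2403 genes), 13.1% with the newer fit (1770 genes) and 0.65% to 7.24% without 1 batch each (0.65% without 8_8, 1.08% without 9_4, 3.63% without 7). The cause was not tested. Without the batch as a replicate block, the shares were 0.839% (98 genes) and 0.0103% (1 gene) after LPS in scRNA-seq and Live-seq, 0% for the interaction, and 43% (5825 genes) and 13.9% (1873 genes) for RAW against non-RAW cells. Clec4e was then at 2.94 (edgeR, adjusted p = 0.0405) in scRNA-seq and 3.27 (adjusted p = 0.0665) in Live-seq, and Clec7a changed sign in Live-seq RAW against non-RAW cells, to 2.53, without a call.

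The interaction changed sign for Clec4e without Live-seq batch 7 (-0.24, range -0.24 to 0.68), for Clec4d without Live-seq batch 6 (-0.15, range -0.15 to 0.61) and for Clec5a without Live-seq batch 6 or 7 (-0.43 each, range -0.43 to 0.59) or scRNA-seq batch 9_1 (-0.14), so its direction is not settled for any of them. Clec4e after LPS kept its sign under every alternative run, at 2.90 to 3.41 in scRNA-seq and 2.95 to 4.30 in Live-seq, but was not called in scRNA-seq with all 5 states in 1 fit (edgeR, adjusted p = 0.0872) and was called in Live-seq with DESeq2 (adjusted p = 0.000419). Of the other fitted values for members and shares of RAW cells, all kept their sign and their status as called or not, or moved within their interval, except for 4 shares. Single thresholds were crossed without a call. In scRNA-seq the adjusted p of Clec4d and Clec5a after LPS fell to 0.00663 and 0.0107 with DESeq2. In Live-seq their log2 fold changes reached 1.57 each. Fits without a finite standard error or with a change of 0 were left out of this comparison. Thinning to 50000 kept counts moved the share of scRNA-seq cells with Clec4n to an expected 2.89% in RAW_LPS and 1.92% in RAW_Mock and that with Clec4d to an expected 86.2% in RAW_LPS, and asking for 2 counts moved Clec4n to 3.18% in RAW_Mock. Leaving out the mock cell with the most Clec4e or the library labelled IBA and permuting Clec4e within shared batches (exact p = 0.125 in Live-seq in place of 0.0159) were alternatives chosen after seeing the data. In scRNA-seq no sum had 1 or 2 cells, so that keeping such sums gave no value there, and Clec4n and Clec4a2 entered no fit that filtered low counts. Unfiltered, Clec4n was not called after LPS in either technique. Depth bounds the level of Clec4a2 and Clec7a, which had no count in the whole RAW_Mock cells. Pooled over these cells, the floor of 3 counts allows up to 0.0467 CPM.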
